A study of Mus musculus with 24 samples.

Results

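The genes described here are NOTCH receptors, ligands and targets, taken from a table of read counts per gene in mouse lung organoids by their symbols alone. They were the receptors Notch1, Notch2 and Notch3, the ligands Dll1, Dll4, Jag1 and Jag2, the receptor-modifying enzyme Mfng, and the target genes Hes1 and Hey1. All 10 were found among the 49280 features of the table, and all 10 passed the filter on low counts in every fit, so no gene of the set was lost before testing.

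Organoids were grown from epithelial cells of untreated mouse lungs co-cultured in a basement membrane gel with CCL206 cells, an established line of mouse lung fibroblasts. During the first culture, which ended on day 14, they received 5% cigarette smoke extract (CSE) or vehicle. The cultures were then taken apart, the epithelial cells were plated again with new CCL206 cells, and from then until harvest on day 28 the medium held vehicle or 2 drugs. These were 100 nM tanimilast, an inhibitor of the enzyme family PDE4 that breaks down cyclic AMP, with 100 nM formoterol, an agonist of the beta-2 adrenergic receptor. RNA came separately from Epcam-positive cells, called the epithelial fraction here, and from Epcam-negative cells, called the fibroblast fraction. The 8 groups of 3 libraries are written EpiVeh, EpiCSE, EpiTF and EpiCSETF, and FibVeh, FibCSE, FibTF and FibCSETF, where Veh is vehicle in both cultures, CSE is smoke extract then vehicle, TF is vehicle then both drugs, and CSETF is smoke extract then both drugs. All libraries were labelled with the same genotype, WT, and the labels give no age for the animals. The labels give mouse 1, 2 or 3 as a batch, taken here to be the donor of the epithelial cells, so each mouse had 1 library in every group. The fibroblasts of every culture were of a single cell line, and those harvested joined after the smoke extract had been given. Epithelial cells of the mice shared these cultures, so values of the fibroblast fraction are not those of the line alone. The sources used here do not say how the fractions were separated.

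NOTCH receptors are cut and release a part that enters the nucleus when a ligand on a neighbouring cell, of the Delta-like or Jagged kind, pulls on them. The released part binds the DNA-binding protein RBPJ and switches on targets such as Hes1 and Hey1, which encode repressors of transcription. In the airway the pathway is known for steering basal cells towards secretory rather than multiciliated cells, and between epithelium and mesenchyme it is known for mural and fibroblast programmes.

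Each library held 31832267 to 47534709 counts, so the lowest of the 10 genes, Dll4, still had reads in every library. Levels below are in CPM, counts scaled to library size by the TMM method, always in the order mouse 1, mouse 2, mouse 3. Marker genes separated the fractions without making them pure. All 12 of 12 epithelial identity markers were called higher in the epithelial fraction and all 11 tested fibroblast markers lower, out of 12 listed. Epcam averaged 1048 to 1482 CPM over the epithelial groups and 308 to 546 CPM over the fibroblast groups, so the fibroblast libraries kept epithelial RNA. In the fibroblast groups the epithelial identity markers averaged a summed 4737 to 7346 CPM and the fibroblast markers 2717 to 4183 CPM. The 12 endothelial markers together summed to 5.13 to 16.8 CPM per library, with Sox17 at 0 in every library. The 10 immune markers summed to 42.2 to 93.4 CPM, mostly Cd68 and Lyz2, while Ptprc, the gene of the leukocyte antigen CD45, reached at most 0.248 CPM and Tyrobp at most 0.120 CPM. Both fibroblast libraries of mouse 1 after CSE stood apart in collagen RNA. Col1a1 was at 2145 CPM in FibCSE of mouse 1 against 381 and 359 CPM in mice 2 and 3, and at 990 CPM in FibCSETF of mouse 1 against 256 and 232 CPM. Exons of Notch1, Dll1, Dll4 and Notch3 overlap genes on the opposite strand, and exons of Notch2 overlap a gene on the same strand, in GENCODE M21. The sources used here do not say whether counting used strand, so reads of such partners may be included. In bulk RNA of this kind, fewer cells of a type and less RNA per cell cannot be told apart.

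The windows before the starts of Notch1 and Dll1, the receptor and ligand whose RNA rose after CSE in the fibroblast fraction, are printed below. They are marked for the short DNA core of the aryl hydrocarbon receptor, a transcription factor with ligands in cigarette smoke. The CCL206 cells of the second culture joined after the smoke extract had been given, and a role of this receptor was not tested. Each window is the 250 bases upstream of a RefSeq start, build GRCm38.p6, read along the gene's strand. The letters GCGTG, or CACGC on the other strand, are in capitals. The Notch1 window lies at chr2:26503823-26504072 on the minus strand, and the 2 windows of Dll1, which has 2 starts in the RefSeq table, lie at chr17:15375824-15376073 and chr17:15376933-15377182 on the minus strand. The Dll1 starts are called first and second in order of genome coordinate, so the second lies upstream along the gene.
Notch1: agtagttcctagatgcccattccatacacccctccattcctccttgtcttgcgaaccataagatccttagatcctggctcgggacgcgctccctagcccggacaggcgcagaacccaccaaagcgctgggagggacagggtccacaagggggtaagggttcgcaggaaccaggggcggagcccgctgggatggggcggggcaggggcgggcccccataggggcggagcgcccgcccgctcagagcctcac
Dll1, first start: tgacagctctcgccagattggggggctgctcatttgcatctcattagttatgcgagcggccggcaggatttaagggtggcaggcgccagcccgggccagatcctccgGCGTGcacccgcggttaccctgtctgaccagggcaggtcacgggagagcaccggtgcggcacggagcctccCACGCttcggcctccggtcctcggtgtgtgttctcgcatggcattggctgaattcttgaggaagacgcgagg
Dll1, second start: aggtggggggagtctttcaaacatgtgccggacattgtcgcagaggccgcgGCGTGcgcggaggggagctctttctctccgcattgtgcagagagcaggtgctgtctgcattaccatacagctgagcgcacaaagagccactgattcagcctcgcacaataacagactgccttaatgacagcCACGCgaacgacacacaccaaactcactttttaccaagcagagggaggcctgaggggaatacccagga
The Notch1 window held 0 such cores and each Dll1 window held 2. The Jag1 window also held 2, and the windows of Dll4, Notch2, Jag2 and Notch3 held 1 each, so the core was not particular to Dll1. GCGTG or CACGC occurred in 28.2% of the 32851 promoter windows of the same length, so the letters are common and mark no binding site by themselves. The core of RBPJ, TGGGAA or TTCCCA on the other strand, was in 0 of the 8 windows found for 7 of the 10 genes and in 21.6% of all windows. No window was at hand for Hes1, Hey1 and Mfng, so the target genes of the set could not be searched for the RBPJ core.

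Compared per kilobase of exon, Hes1 stood highest and Dll4 lowest in both fractions. Among epithelial libraries Hes1 averaged 37.7 CPM per kb (SD 4.22, n = 12), above Jag1 at 15.5 (SD 2.51), Jag2 at 15.1 (SD 1.90) and Hey1 at 11.3 (SD 3.38), and the ranges of the last 3 overlapped. The receptors followed in that fraction with Notch2 at 7.57 CPM per kb (SD 0.447), Notch3 at 5.15 (SD 1.00) and Notch1 at 3.93 (SD 0.738), while Dll1 at 4.39 (SD 1.17) overlapped in range with Notch3 and Notch1. Notch2 lay above the whole range of Notch3. Among fibroblast libraries Hes1 averaged 22.6 CPM per kb (SD 3.46, n = 12). The next 6 genes there ran from Notch2 at 9.39 (SD 0.961) through Notch3, Jag1, Mfng and Jag2 to Hey1 at 6.14 (SD 2.54), each overlapping its neighbour in range, so their order is not firm. Mfng, at 7.68 CPM per kb (SD 2.82), lay among them, while in epithelial libraries it was next to last at 1.32 (SD 0.605).

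**Figure D1:**
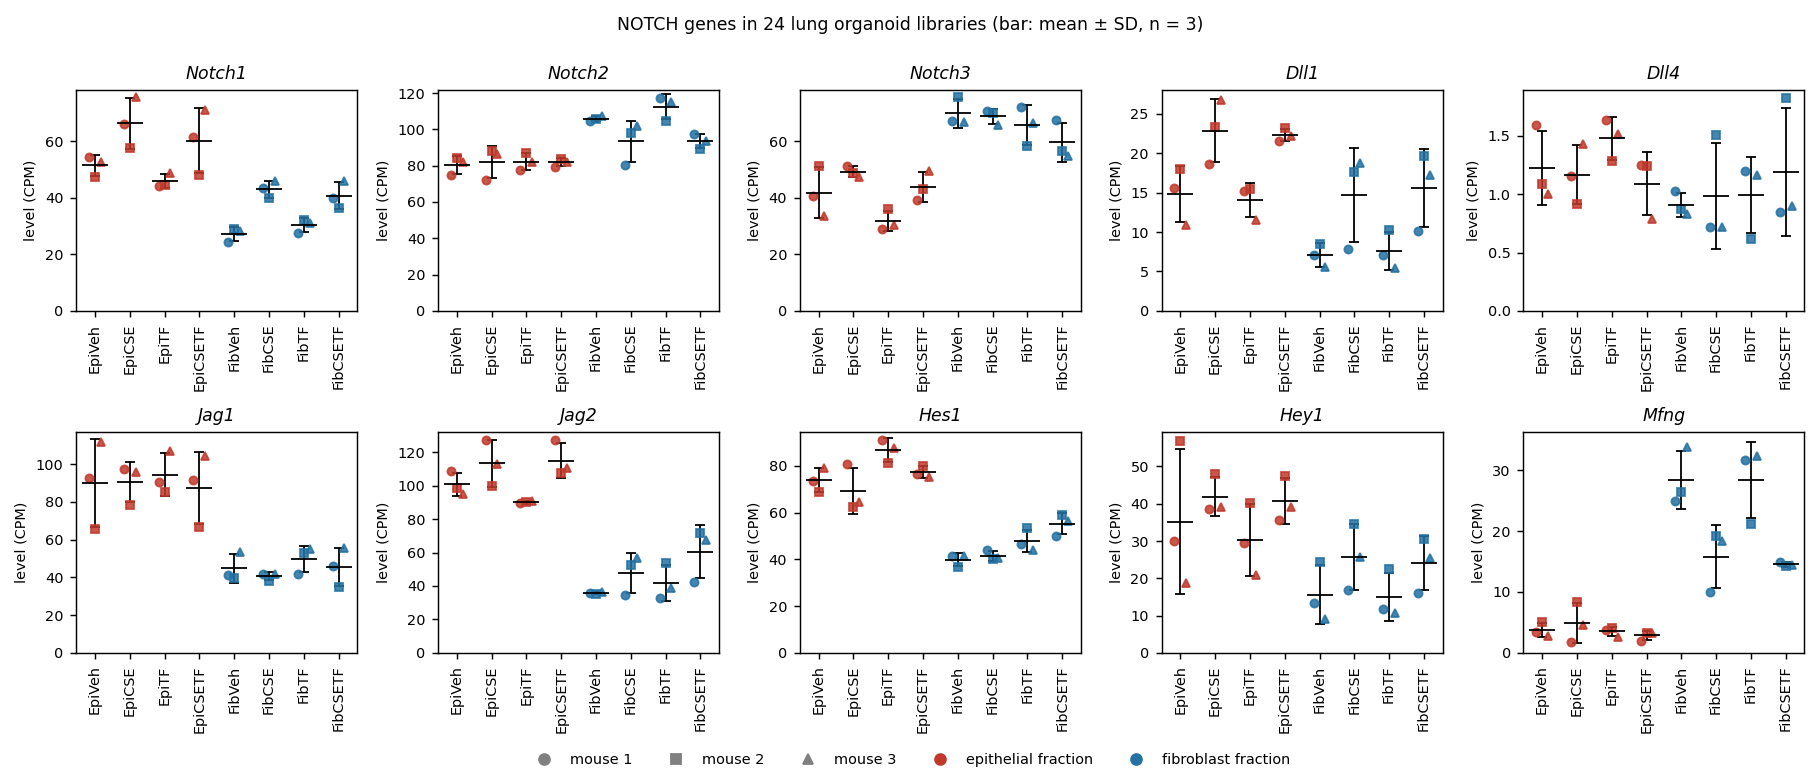
CPM of the 10 NOTCH genes in the 24 libraries, 1 panel per gene, with the 8 groups along the horizontal axis, 1 point per mouse and a bar for the group mean ± SD (n = 3). Mfng lies between 9.92 and 33.8 CPM in the fibroblast libraries and between 1.82 and 8.29 CPM in the epithelial libraries, while Jag2 shows the opposite order.

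The first comparison asked in which fraction each NOTCH gene was higher, over the 4 treatments. Both Jagged ligands, Dll1, Notch1 and both targets were higher in the epithelial fraction, while Notch2, Notch3 and above all Mfng were higher in the fibroblast fraction. By edgeR's quasi-likelihood test with Benjamini-Hochberg adjustment over 19142 genes, 9 of 10 were called at an adjusted p under 0.05, 6 higher and 3 lower in the epithelial fraction. That contrast called 68.9% of all genes, 34.7% higher and 34.2% lower in the epithelial fraction, so a call by itself sets the NOTCH genes apart little. For each of the 9 called genes, all 12 of 12 pairs of libraries from the same mouse and treatment moved the same way, and each call held in all 27 fits that left out a mouse or a library.

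The receptors split between the fractions. Notch1, a receptor used widely in epithelia, had a lowest, median and highest level of 44.2, 53.5 and 75.4 CPM in the 12 epithelial libraries and of 24.4, 34.2 and 46.0 CPM in the 12 fibroblast libraries. Those ranges overlapped slightly, since the highest fibroblast libraries, all after CSE, reached the lowest epithelial ones. Its log2 fold change, epithelial over fibroblast, was 0.66 ± 0.06 (SE; adjusted p = 1.35e-08). Notch3, the receptor best known from mural cells, ran from 29.0 through 41.7 to 51.3 CPM in the epithelial libraries and from 54.7 through 66.9 to 75.6 CPM in the fibroblast libraries, without overlap. It was lower in the epithelial fraction, by -0.69 ± 0.07 on the log2 scale (adjusted p = 1.85e-08). The 8 mural markers were divided between the fractions. Their median log2 fold change was -0.55, with 2 called higher and 2 lower in the epithelial fraction out of 6 tested. Cspg4 and Des were lower there, by -2.37 ± 0.28 and -2.65 ± 0.21, and Mcam and Rgs5 higher, by 1.39 ± 0.18 and 1.80 ± 0.31. Pdgfrb, a receptor of mural cells and fibroblasts alike, was lower by -2.88 ± 0.23. The list summed to 53.8 to 185 CPM in the epithelial and 66.4 to 122 CPM in the fibroblast libraries, of which Mcam alone held 43.6 to 145 and 17.6 to 49.6 CPM. Kcnj8 was at 0 in every epithelial library and at most 0.0593 CPM in the fibroblast libraries. The part of mural RNA in the level of Notch3 was not tested. Notch2 had medians of 82.2 and 103 CPM and differed least of the receptors, by -0.32 ± 0.04 (adjusted p = 1.89e-06).

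Among the ligands, Jag2 and Jag1 differed most. Jag2 ran from 89.4 through 103 to 127 CPM in the epithelial libraries and from 32.8 through 40.6 to 71.8 CPM in the fibroblast libraries, and the ranges did not overlap. Its log2 fold change was 1.18 ± 0.09 (adjusted p = 2.15e-09), which is 2.26-fold. Jag1 ran from 65.4 through 91.9 to 112 CPM against 35.1 through 41.9 to 55.4 CPM, also without overlap, a difference of 0.99 ± 0.10 on the log2 scale (adjusted p = 4.11e-08). Dll1, a ligand whose RNA was lower than that of the Jagged genes in both fractions, showed overlapping ranges, from 10.9 through 18.3 to 26.7 CPM against 5.41 through 9.31 to 19.6 CPM, and differed by 0.76 ± 0.15 (adjusted p = 0.000146). Dll4, best known as a ligand of sprouting endothelium, lay at 0.784 to 1.64 CPM in the epithelial and 0.620 to 1.83 CPM in the fibroblast libraries. Its difference of 0.27 ± 0.17 was not called (adjusted p = 0.176, higher in 9 of 12 pairs), and it was called in 1 of the 27 fits with libraries left out, the fit without mouse 2. The endothelial genes Pecam1 and Cdh5 stood at 0.109 to 1.36 and 0 to 1.42 CPM per library, as low as Dll4 itself. Other endothelial markers stood higher, with Flt1 at 2.03 to 7.05 CPM in the epithelial and 0.826 to 4.66 CPM in the fibroblast libraries. The tested markers were divided between the fractions. Pecam1, Cdh5 and Kdr were lower in the epithelial fraction, by -1.69 ± 0.27, -2.52 ± 0.49 and -0.80 ± 0.30. Flt1 and Egfl7 were higher, by 0.82 ± 0.25 and 0.90 ± 0.17, and Esam was not called.

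Mfng had the largest difference between the fractions of the 10 genes. It encodes Manic fringe, a Golgi enzyme that extends sugars on NOTCH receptors and so changes which ligands activate them. The 12 epithelial libraries ran from 1.82 through 3.37 to 8.29 CPM and the 12 fibroblast libraries from 9.92 through 20.2 to 33.8 CPM, with no overlap. Its level was 5.70-fold lower in the epithelial fraction, or -2.51 ± 0.20 on the log2 scale (adjusted p = 2.24e-09). The other fringe genes, from the list of further pathway genes, gave smaller differences: Lfng was 0.49 ± 0.10 higher and Rfng -0.56 ± 0.08 lower in the epithelial fraction on the log2 scale.

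Both targets were higher in the epithelial fraction. Hes1 ran from 62.6 through 77.8 to 91.3 CPM in the epithelial libraries and from 36.6 through 44.1 to 58.9 CPM in the fibroblast libraries, without overlap, and its log2 fold change was 0.73 ± 0.05 (adjusted p = 2.44e-10). Hey1 ran from 18.8 through 38.9 to 56.8 CPM and from 9.10 through 19.6 to 34.5 CPM, with overlap, and differed by 0.90 ± 0.20 (adjusted p = 0.000593).

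**Figure D2:**
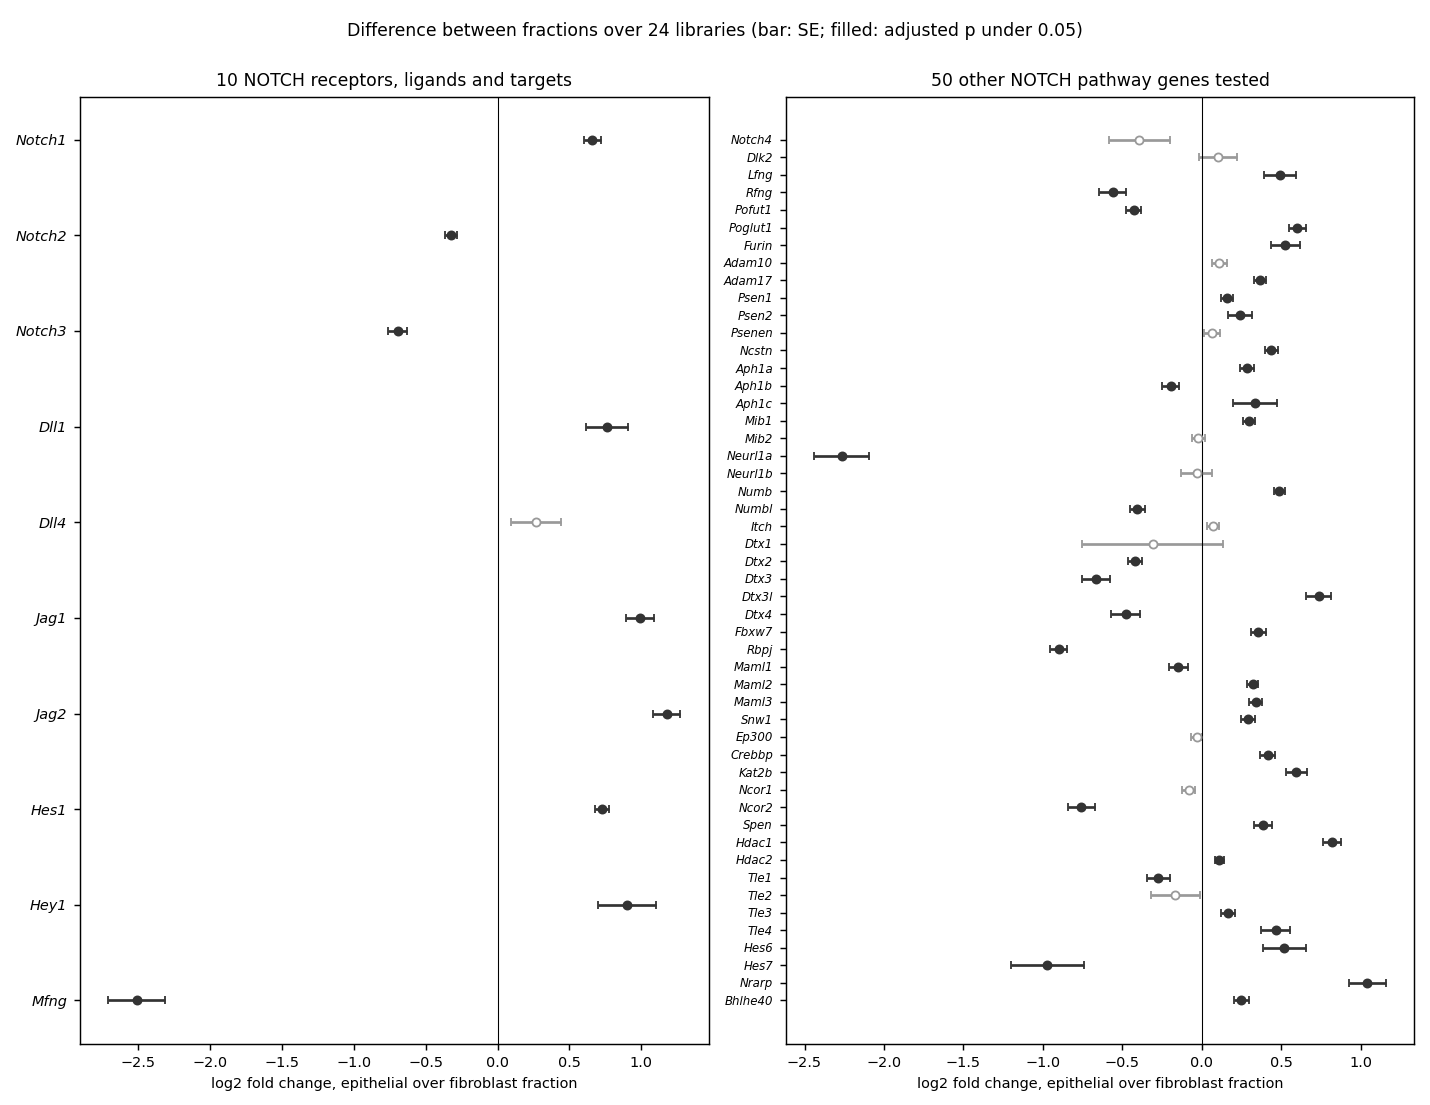
Log2 fold change, epithelial over fibroblast fraction, of each NOTCH gene with its standard error, over 24 libraries, beside the other NOTCH pathway genes tested; filled symbols are called at an adjusted p under 0.05. The 6 NOTCH genes called higher in the epithelial fraction lie between 0.66 and 1.18, and Mfng lies at -2.51. Of the other pathway genes Neurl1a lies near it, at -2.27.

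These differences can be read beside those of the markers. The 12 epithelial identity markers lay between 1.11 and 1.52 on the same log2 scale, with a median of 1.22, and the 11 fibroblast markers between -3.14 and -1.64, with a median of -2.71. Of the 9 called NOTCH genes, Jag2 among those higher and Mfng among those lower fell within the range of the markers of the fraction they favoured, and the other 7 were closer to 0. How much of the RNA of a NOTCH gene in one fraction came from cells of the other kind was not tested.

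Of 57 further genes of the pathway, 50 were tested, and 39 of them differed between the fractions, 26 higher and 13 lower in the epithelial fraction. That is 78% of those tested beside 68.9% of all genes, and their median log2 fold change was 0.13 beside 0.03. The counts of the smaller lists that follow stand against the same 34.7% of all genes higher and 34.2% lower. Rbpj, which encodes the DNA-binding partner of the cut receptor, was lower in the epithelial fraction, at 148 CPM (SD 12.6, n = 12) against 275 CPM (SD 33.6), a log2 fold change of -0.90 ± 0.05. Neurl1a, a ubiquitin ligase of ligand endocytosis, was lower by -2.27 ± 0.17, at 3.48 against 16.2 CPM. Proteases that process the receptor were mostly higher in the epithelial fraction, 7 of 10 up and 1 down. They included Adam17 (0.36 ± 0.04), which cuts the receptor outside the cell, and Ncstn (0.44 ± 0.04), a subunit of gamma-secretase. Of the genes of endocytosis and turnover 4 were higher and 5 lower out of 13, with Numb, an inhibitor of NOTCH, higher by 0.49 ± 0.04 and Dtx2, a ubiquitin ligase that binds NOTCH, lower by -0.42 ± 0.05. The nuclear list had 10 up and 4 down of 17, with the deacetylase gene Hdac1 higher by 0.82 ± 0.06, and the enzymes that put sugars on the receptor had 2 up and 2 down of 4, with the glucosyltransferase gene Poglut1 higher by 0.60 ± 0.05. Nrarp, a target that feeds back on NOTCH, is named here after its values were seen: it stood at 27.8 CPM (SD 4.24, n = 12) in the epithelial and 13.7 CPM (SD 5.38) in the fibroblast fraction.

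The next comparison asked what smoke extract in the first culture left behind at day 28, averaged over cultures with and without the drugs. Notch1 and Dll1 were higher after CSE in the fibroblast fraction, and Mfng was lower. With edgeR these were 3 of 10 called, 2 up and 1 down, beside 4.01% of the 18287 genes tested, 1.83% up and 2.18% down. At an unadjusted p under 0.05 there were 7 of 10, beside 21.2% of all genes. With the mouse as a block in the fit, 5 of 10 were called, with Jag2 and Hey1 added as higher, beside 8.69% of all genes. DESeq2 also called 5, with Jag2 and Notch2 added, beside 9.49%.

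Notch1 stood at 24.4, 28.8 and 28.4 CPM in FibVeh and 27.4, 32.1 and 31.2 CPM in FibTF. After CSE it stood at 43.4, 39.9 and 45.8 CPM in FibCSE and 39.8, 36.4 and 46.0 CPM in FibCSETF. All 6 libraries after CSE were above all 6 without it. The log2 fold change was 0.56 ± 0.07 (SE; adjusted p = 0.0051, higher in 6 of 6 pairs), or 1.48-fold, and the call held in 14 of the 15 fits that left out a mouse or a library. Without mouse 3 the change was 0.53 ± 0.10 and no longer called (adjusted p = 0.384). Without drugs in the second culture the change was 0.68 ± 0.11 (adjusted p = 0.0476), where 0.104% of genes were called, and that narrower call held in 1 of 15 such fits, with adjusted p from 0.0546 to 0.941 in the other 14.

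Dll1 stood at 7.14, 8.53 and 5.57 CPM in FibVeh and 7.12, 10.3 and 5.41 CPM in FibTF, against 7.81, 17.6 and 18.8 CPM in FibCSE and 10.1, 19.6 and 17.2 CPM in FibCSETF. The 4 libraries of mice 2 and 3 after CSE were the highest, while both of mouse 1 fell among those without CSE. The log2 fold change was 1.06 ± 0.25 (adjusted p = 0.0441, higher in 6 of 6 pairs), or 2.09-fold. Its call held in 4 of 15 fits with libraries left out: it was lost without mouse 2 (1.10 ± 0.32, adjusted p = 0.148), without mouse 3 (0.75 ± 0.32, adjusted p = 0.602), and without any 1 library of FibVeh 1, 2 and 3 (the numbers are mice), FibTF 1 and 3, FibCSE 2 and 3, and FibCSETF 2 and 3, where the log2 fold change lay between 0.95 and 1.13. It was not called either when no filter on low counts was used (adjusted p = 0.0821).

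Mfng went the other way, at 24.96, 26.4 and 33.8 CPM in FibVeh and 31.7, 21.2 and 32.3 CPM in FibTF, and at 9.92, 19.2 and 18.3 CPM in FibCSE and 14.9, 14.3 and 14.4 CPM in FibCSETF. Each library after CSE was below each one without it, with FibCSE of mouse 1 the lowest. The log2 fold change was -0.89 ± 0.17 (adjusted p = 0.0195, lower in 6 of 6 pairs), or 1.85-fold lower. The call held in 9 of 15 fits with libraries left out and was lost without mouse 2 (-1.09 ± 0.20, adjusted p = 0.0671), without mouse 3 (-0.82 ± 0.22, adjusted p = 0.513) and without any 1 of FibTF 1 and 3, FibVeh 3 and FibCSETF 3.

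All 3 calls held without mouse 1, whose libraries after CSE had the high Col1a1, and without either of those libraries. Without mouse 1 Notch1 changed by 0.51 ± 0.08 (adjusted p = 0.0259), Dll1 by 1.32 ± 0.22 (adjusted p = 0.0299) and Mfng by -0.77 ± 0.15 (adjusted p = 0.0405). Without FibCSE of mouse 1 alone Notch1 changed by 0.55 ± 0.08 (adjusted p = 0.00674), Dll1 by 1.21 ± 0.20 (adjusted p = 0.0126) and Mfng by -0.77 ± 0.13 (adjusted p = 0.0105). All 3 calls needed mouse 3: without it edgeR called 0 of 10 NOTCH genes and 0 of 18334 genes, with 4 and 1512 at an unadjusted p under 0.05.

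Jag2 stood at 35.8, 35.2 and 36.7 CPM in FibVeh and 32.8, 54.0 and 38.9 CPM in FibTF, against 34.4, 52.5 and 57.0 CPM in FibCSE and 42.2, 71.8 and 67.3 CPM in FibCSETF. The 2 highest were FibCSETF of mice 2 and 3, and the groups overlapped through mouse 1 and through FibTF of mouse 2. The change of 0.49 ± 0.17 was not called without a mouse term (adjusted p = 0.126, higher in 5 of 6 pairs) and was called with the mouse as a block (0.47, adjusted p = 0.0344). Hey1 differed between mice as well as with CSE: FibVeh held 13.3, 24.4 and 9.10 CPM, FibTF 11.8, 22.4 and 10.5, FibCSE 16.8, 34.5 and 25.7, and FibCSETF 16.2, 30.6 and 25.5 CPM. Within every mouse both libraries after CSE were above both without it, while across mice the groups overlapped. Its change was 0.72 ± 0.29 (adjusted p = 0.182, higher in 6 of 6 pairs), and with the mouse as a block 0.76 (adjusted p = 0.0193).

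The remaining receptors, ligands and Hes1 were not called after CSE in the fibroblast fraction by edgeR, with or without the mouse as a block. Notch2 was at 104 to 107 CPM in FibVeh and 105 to 118 CPM in FibTF, against 80.6 to 102 CPM in FibCSE and 89.4 to 97.5 CPM in FibCSETF, with no overlap between libraries with and without CSE. Its log2 fold change of -0.20 ± 0.06 had an adjusted p of 0.0865 with edgeR and 0.0336 with DESeq2, and it was lower in 6 of 6 pairs. Notch3 differed by -0.06 ± 0.07, Jag1 by -0.12 ± 0.12 and Hes1 by 0.15 ± 0.07, with adjusted p of 0.671, 0.634 and 0.228. Dll4 differed by 0.20 ± 0.29 (adjusted p = 0.733), and its 2 highest fibroblast libraries, at 1.51 and 1.83 CPM, were FibCSE and FibCSETF of mouse 2.

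**Figure D3:**
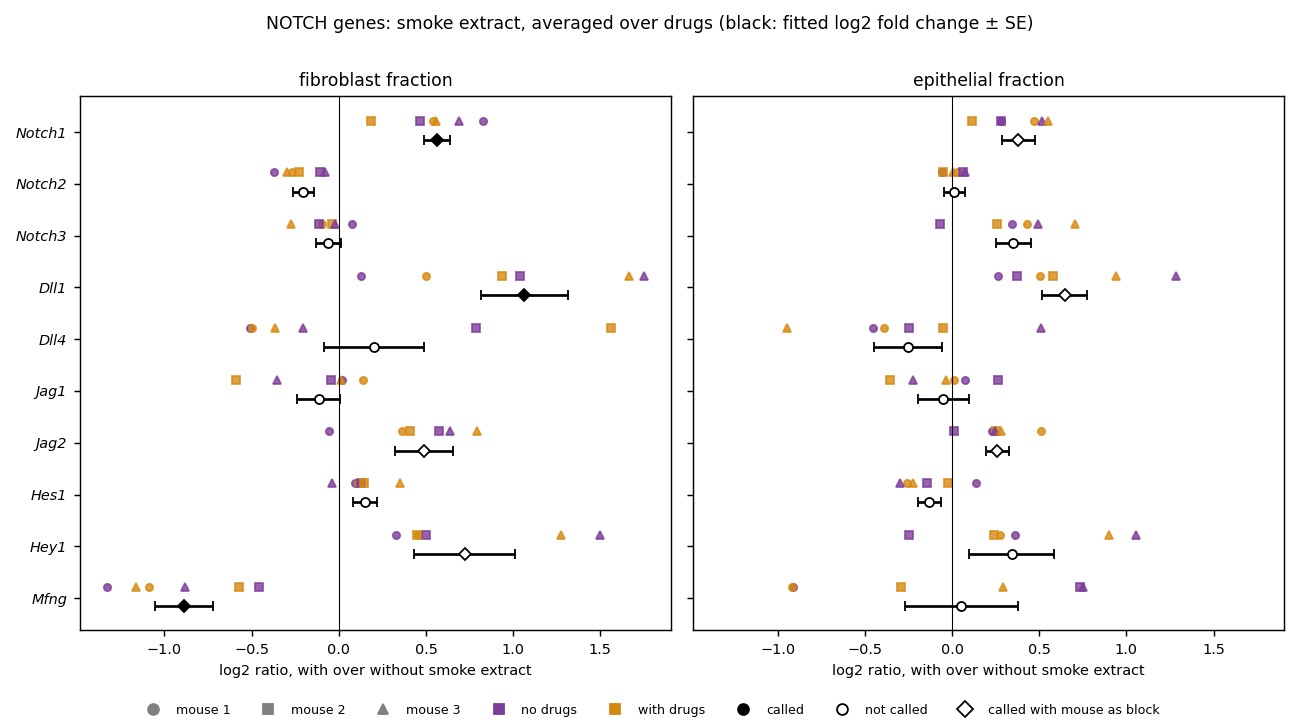
Log2 fold change after CSE of each NOTCH gene with its standard error, in the epithelial and the fibroblast fraction, averaged over drugs, as black symbols, with the log2 ratio within each mouse as coloured points; filled black symbols are called without a mouse term, and diamonds are called with the mouse as a block. In the fibroblast fraction Dll1 lies at 1.06 and Mfng at -0.89, and in the epithelial fraction Dll1 lies at 0.65 and Mfng at 0.05.

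Markers of epithelial cell types moved with CSE in the same fibroblast libraries. Of the epithelial identity markers 0 of 12 were called by edgeR, 1 at an unadjusted p under 0.05, with a median log2 fold change of 0.03, and Epcam differed by -0.29 ± 0.19 (adjusted p = 0.427). Alveolar type 2 markers rose in 5 of 7, with a median of 1.61, secretory markers in 3 of 8, with a median of 1.10, alveolar type 1 markers in 2 of 6, basal markers in 1 of 8, and multiciliated markers in 0 of 7 tested, with 1 at an unadjusted p under 0.05. Summed over its 7 genes, the type 2 list held 325 to 453 CPM in FibVeh and 308 to 603 in FibTF, against 587 to 1812 in FibCSE and 909 to 2194 in FibCSETF. The mean sums of 1227 CPM in FibCSE and 1441 in FibCSETF stood beside 1144 in EpiCSE and 1230 in EpiCSETF. After CSE the fibroblast fraction thus held about as much RNA of this list as the epithelial fraction. Without CSE the means were 395 CPM in FibVeh and 455 in FibTF, below 688 in EpiVeh and 684 in EpiTF. Trp63, a basal cell factor, stood at 26.9, 29.4 and 25.9 CPM in FibVeh and 27.5, 41.3 and 25.6 CPM in FibTF. After CSE it stood at 30.1, 60.0 and 63.6 CPM in FibCSE and 36.6, 64.0 and 59.8 CPM in FibCSETF. Mouse 1 was thus its lowest after CSE, as for Dll1. Krt5 of the same list was lowest after CSE in mouse 2. It stood at 165, 173 and 141 CPM in FibVeh and 105, 150 and 99.6 CPM in FibTF. In FibCSE it stood at 202, 169 and 262 CPM, and in FibCSETF at 206, 112 and 296 CPM. Fibroblast markers fell in 1 of 11, with a median of -0.12. The 12 endothelial markers together summed to 5.27 to 7.65 CPM in FibVeh, 5.13 to 10.6 in FibTF, 9.46 to 13.2 in FibCSE and 9.51 to 16.8 in FibCSETF, and 1 of 6 tested was called higher, Esam. The 10 immune markers averaged a summed 44.1 CPM in FibVeh and 51.5 in FibTF against 74.4 in FibCSE and 69.3 in FibCSETF, and 1 of 5 tested was called higher, Lyz2, which alveolar type 2 cells also express, and 0 of 5 with the mouse as a block. Of the mural markers 1 of 6 tested was called lower, Des, with a median of 0.08 over the list. The part of these shifts in the changes of Notch1, Dll1 and Mfng was not tested.

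Of the 50 further pathway genes tested, 4 were called after CSE in the fibroblast fraction, 2 up and 2 down, which is 8% beside 4.01% of all genes, with a median of 0.08 beside 0.02. Numb rose by 0.24 ± 0.06 (adjusted p = 0.0385), to 38.1 CPM (SD 2.09, n = 6) from 32.6 (SD 2.05). Kat2b, a histone acetyltransferase that joins the NOTCH activator complex, rose by 0.50 ± 0.11 (adjusted p = 0.0385). Dtx2 fell by 0.24 on the log2 scale (SE 0.06, adjusted p = 0.0418). Bhlhe40, a repressor gene listed among the targets, fell by 0.33 (SE 0.06, adjusted p = 0.0165), to 340 CPM (SD 29.2, n = 6) from 432 (SD 30.1).

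Among NOTCH genes of the epithelial fraction, 0 of 10 were called after CSE by edgeR without a mouse term, beside 0.00554% of 18038 genes, while 4 of 10 passed an unadjusted p under 0.05, beside 8.38% of genes. DESeq2 called 1, Dll1, beside 0.882% of genes, and edgeR with the mouse as a block called 3, all higher, beside 1% of genes.

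Dll1 stood at 15.5, 18.0 and 10.9 CPM in EpiVeh and 15.2, 15.5 and 11.5 CPM in EpiTF, against 18.7, 23.3 and 26.7 CPM in EpiCSE and 21.6, 23.1 and 22.1 CPM in EpiCSETF. All 6 libraries after CSE were above all 6 without it, mouse 1 included. The log2 fold change was 0.65 ± 0.13 (adjusted p = 0.167 without a mouse term, 0.0470 with the block and 0.00163 with DESeq2). Notch1 stood at 54.3, 47.2 and 52.7 CPM in EpiVeh and 44.2, 44.5 and 48.6 CPM in EpiTF, against 66.1, 57.4 and 75.4 CPM in EpiCSE and 61.3, 48.1 and 71.1 CPM in EpiCSETF. Each library after CSE was above its counterpart of the same mouse and drug state without CSE, but EpiCSETF of mouse 2 lay among those without CSE. Its change was 0.38 ± 0.10 (adjusted p = 0.286, and 0.0303 with the block; higher in 6 of 6 pairs). Jag2 was at 95.3 to 109 CPM in EpiVeh and 89.4 to 91.1 in EpiTF, and at 99.6 to 127 CPM in EpiCSE and 107 to 127 in EpiCSETF, so the groups overlapped slightly. Its change was 0.26 ± 0.07 (adjusted p = 0.287, and 0.0470 with the block; higher in 6 of 6 pairs).

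The other 7 genes were not called in the epithelial fraction by any of these fits. Notch3 was higher in 5 of 6 pairs, by 0.35 ± 0.10 (adjusted p = 0.379), and Hey1 in 5 of 6 pairs, by 0.34 ± 0.24 (adjusted p = 0.752). Mfng gave 0.05 ± 0.32 (adjusted p = 0.973), at 1.82 to 8.29 CPM in EpiCSE alone, and -0.02 with the block, so its direction there is not settled. Hes1 gave -0.13 ± 0.07 (adjusted p = 0.654), Jag1 -0.05 ± 0.14, Dll4 -0.25 ± 0.20 and Notch2 0.01 ± 0.06. Beside these, 0 of 7 alveolar type 2 markers and 0 of 8 basal markers were called in the epithelial fraction by edgeR, with medians of 0.92 and 0.35 and with 4 and 3 at an unadjusted p under 0.05. Secretory markers summed to 566 to 2507 CPM in EpiVeh and 620 to 1730 in EpiTF. They summed to 1166 to 2479 CPM in EpiCSE and 1512 to 3214 in EpiCSETF. Scgb1a1 of that list averaged 41.5 and 19.4 CPM in EpiVeh and EpiTF, against 254 and 209 CPM in EpiCSE and EpiCSETF. In the same order of groups, multiciliated markers averaged a summed 515 and 512 against 555 and 558 CPM. Type 1 markers averaged 2463 and 2429 against 2227 and 2699 CPM.

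Whether the change with CSE differed between the fractions was tested directly. EdgeR called 0 of 10 NOTCH genes and 0 of 19142 genes (1652 genes had an unadjusted p under 0.05, and DESeq2 called 79 genes and 0 NOTCH genes), while 4 of 10 reached an unadjusted p under 0.05, beside 8.63% of genes. The difference, epithelial minus fibroblast, was 0.95 ± 0.38 for Mfng (adjusted p = 0.508), 0.41 ± 0.13 for Notch3 (adjusted p = 0.46), -0.28 ± 0.09 for Hes1 (adjusted p = 0.465) and 0.22 ± 0.09 for Notch2 (adjusted p = 0.501). For Dll1 it was -0.41 ± 0.29 and for Notch1 -0.18 ± 0.12 (adjusted p = 0.694 and 0.67). The smoke effect on these genes was therefore not shown to differ between the fractions.

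The last comparison asked what tanimilast with formoterol did in the second culture, averaged over smoke states. EdgeR without a mouse term called 0 of 10 NOTCH genes in the fibroblast fraction, beside 0.109% of genes, and 0 of 10 in the epithelial fraction, beside 0.00554%. At an unadjusted p under 0.05 there were 1 and 2 of 10, beside 14.9% and 6.31% of genes. DESeq2 called 1 in the fibroblast and 0 in the epithelial fraction, beside 4.39% and 0.304% of genes, and the mouse block 1 and 0, beside 2.54% and 0.205%.

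Hes1 was the gene in question. It stood at 41.3, 36.6 and 41.6 CPM in FibVeh and 44.0, 40.0 and 40.5 CPM in FibCSE, against 46.4, 53.2 and 44.2 CPM in FibTF and 50.2, 58.9 and 56.4 CPM in FibCSETF. Each library with the drugs was above each without them, and mouse 2 had the lowest level without drugs and the highest with them in both smoke states. The log2 fold change was 0.34 ± 0.07, higher in 6 of 6 pairs, with an adjusted p of 0.104 without a mouse term, 0.0407 with the block and 0.00393 with DESeq2. Taken after CSE alone, it was 0.40 ± 0.09 (adjusted p = 0.309 with edgeR, 0.0472 with DESeq2), and without CSE 0.27 ± 0.09 (adjusted p = 0.738), where edgeR called 0.0109% and 0.00547% of genes. The epithelial levels of Hes1 were 73.4, 69.0 and 79.1 CPM in EpiVeh and 91.3, 81.4 and 87.7 CPM in EpiTF, and 80.8, 62.6 and 64.5 CPM in EpiCSE and 76.4, 80.2 and 75.2 CPM in EpiCSETF. Libraries with drugs were all above those without in cultures that had no CSE, and overlapped with them after CSE, and the averaged change was 0.19 ± 0.07 (adjusted p = 0.723, higher in 5 of 6 pairs). The difference between the fractions was -0.15 ± 0.09 (adjusted p = 1.00).

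Epithelial identity markers moved beside Hes1 in the fibroblast fraction: 0 of 12 were called without a mouse term, 3 of 12 with the block and 10 of 12 at an unadjusted p under 0.05, with a median log2 fold change of 0.48. Epcam differed by 0.52 ± 0.19 (adjusted p = 0.241, higher in 6 of 6 pairs), and the summed list ran from 4246 to 6386 CPM without drugs and from 5441 to 8580 CPM with them. Fibroblast markers had a median of -0.37, with 0 of 11 called without a mouse term, 2 of 11 lower with the block and 2 at an unadjusted p under 0.05. The 12 of them averaged a summed 3960 CPM in FibVeh and 3242 in FibTF, and 4183 in FibCSE and 2717 in FibCSETF. The part of these markers in the change of Hes1 was not tested.

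**Figure D4:**
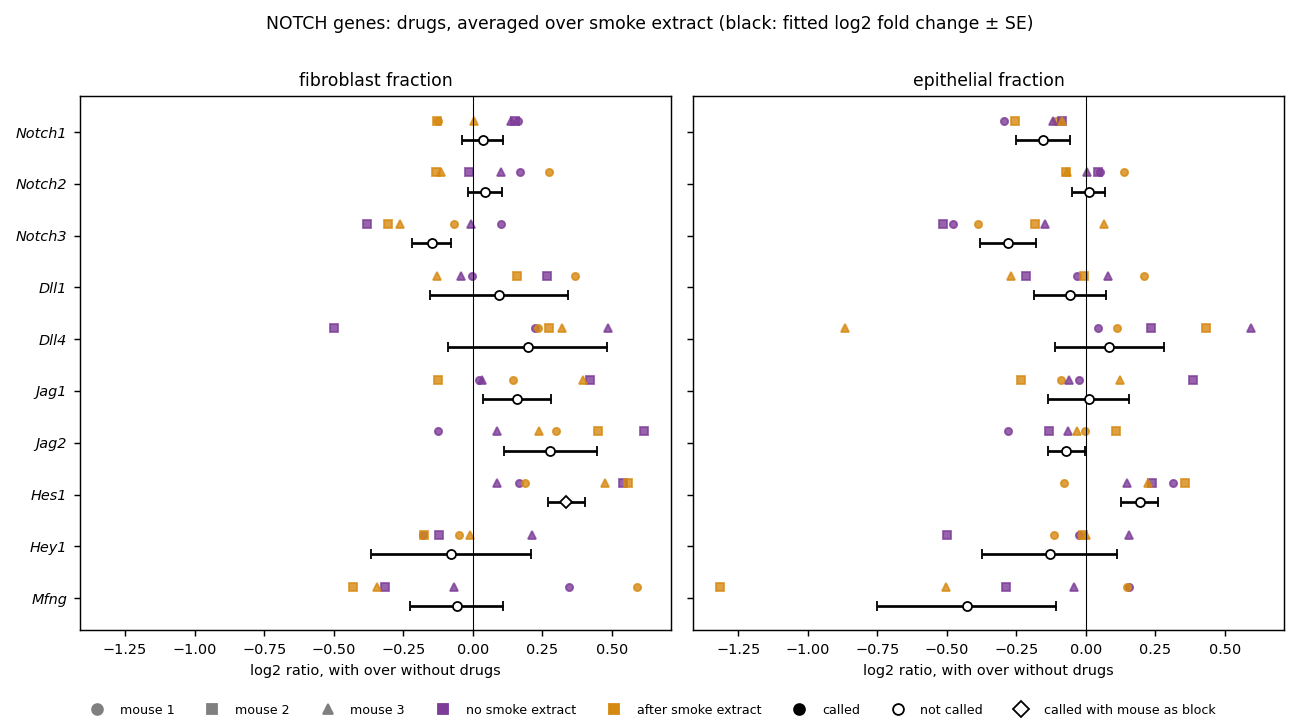
Log2 fold change with tanimilast and formoterol of each NOTCH gene with its standard error, in both fractions, averaged over smoke states, as black symbols, with the log2 ratio within each mouse as coloured points; filled black symbols are called without a mouse term, and diamonds are called with the mouse as a block. Hes1 in the fibroblast fraction, at 0.34, is the diamond.

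The other 9 genes showed changes of either sign with the drugs. In the epithelial fraction Notch3 gave -0.28 ± 0.10 (adjusted p = 0.73, lower in 5 of 6 pairs), and Mfng gave -0.43 ± 0.32 (adjusted p = 0.865). Among fibroblast values Jag2 gave 0.28 ± 0.17 (adjusted p = 0.465) and Notch3 -0.15 ± 0.07 (adjusted p = 0.358). For Notch1 and Dll1, which were higher after CSE in that fraction, the drugs gave 0.04 ± 0.07 and 0.10 ± 0.25, and for Mfng -0.06 ± 0.17. A different drug effect after CSE than without it was called for 0 of 10 genes in either fraction by edgeR and by DESeq2, and 0 of 10 reached an unadjusted p under 0.05, beside 1.15% of genes in the epithelial and 1.98% in the fibroblast fraction. Of the 50 further pathway genes tested, 0 were called with the drugs by edgeR in either fraction, and 5 had an unadjusted p under 0.05 in each.

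By the ratio of the highest to the lowest mouse mean, mice differed most in Hey1 in the fibroblast fraction (1.93) and in Mfng in the epithelial fraction (1.87). Over the 4 fibroblast libraries of each mouse Hey1 averaged 14.5, 28.0 and 17.7 CPM, and over the epithelial libraries 33.5, 48.1 and 29.5 CPM, so mouse 2 was highest in both. Mfng averaged 2.76, 5.17 and 3.32 CPM over the epithelial libraries. Dll1 in the fibroblast fraction averaged 8.04, 14.0 and 11.7 CPM, while Hes1 there averaged 45.5, 47.2 and 45.7 CPM and hardly differed.

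Across the 12 libraries of a fraction, which share treatments and mice, some NOTCH genes varied together, given here as a description. The strongest pairs of either sign are given, by the Pearson correlation of log2 CPM. In the fibroblast fraction it was 0.94 for Notch2 with Mfng, 0.90 for Dll1 with Hey1 and 0.88 for Dll1 with Jag2. It was -0.84 for Notch3 with Hes1, -0.83 for Notch3 with Jag2 and -0.79 for Notch1 with Mfng. Over the epithelial libraries it was 0.78 for Dll1 with Hey1 and -0.80 for Jag1 with Hey1. The most similar gene was also sought for each NOTCH gene, among 12471 named genes of at least 1 CPM in the fibroblast and 12336 in the epithelial fraction. Each is the best of that many over 12 libraries, so its r is high by selection. The gene most like Dll1 was Aox1 in the fibroblast fraction (r = 0.989) and Bmp3, a secreted factor of the BMP family, in the epithelial fraction (r = 0.981). The gene most like Jag2 in the fibroblast fraction was Nkx2-1, a transcription factor of lung epithelium (r = 0.979), and that most like Mfng was Lrrc32, which holds latent TGF-beta at the cell surface (r = 0.984). In the epithelial fraction these were Ptpn1 for Jag2 (r = 0.956) and Abcb1b for Mfng (r = 0.967). Hey1 was closest to Tanc2 in the fibroblast (r = 0.984) and to Elf5, an epithelial transcription factor, in the epithelial fraction (r = 0.968). In the fibroblast and then the epithelial fraction, Notch1 was closest to Srpk2 and Ccdc3 (r = 0.941 and 0.955). In the same order Notch2 was closest to Gga2 and Sfi1 (0.969 and 0.965) and Notch3 to Ppp6r2 and Lmo1 (0.987 and 0.958). Jag1 was closest to Bnc1 and Usp22 (0.952 and 0.959) and Hes1 to Adm2 and Arl1 (0.956 and 0.917). Even Dll4, the lowest gene, reached 0.839 with Adat1 and 0.867 with Ppwd1.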

How the data were processed

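Poly-A RNA of 24 libraries was sequenced, per the labels' protocols. The authors deposited whole-number counts of reads per gene, not normalised, after trimming with Trimmomatic 0.30 according to the submitters' processing notes. The sources used here do not name the aligner, the counter or the use of strand. The labels' protocols name a reference that belongs to a human assembly, so no coordinate of the authors is printed. The table had 43339 Ensembl genes and 5941 loci without a symbol, none left out by type before the filter on low counts. No library held the values of another of its group, and libraries of different groups were not compared in this way.

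The test was edgeR 4.0.16 under R 4.3.3, with TMM scaling, the filter on low counts by group, robust quasi-likelihood F tests and Benjamini-Hochberg adjustment over all genes, with an adjusted p under 0.05 called. Fits within a fraction used 4 group means over 12 libraries, and fits between fractions 8 over 24, with no mouse term. Errors are standard errors of log2 fold changes, or SDs of levels. The scripts were tested on simulated data drawn without a mouse effect, unlike the real libraries. Of genes given a log2 change of 0.5, 39.4% were called for CSE in the epithelial fraction and 42.4% in the fibroblast fraction. Between the fractions 31.3% were called. Of those given a change of 1 these shares were 69.2%, 65.2% and 81.5%. A gene not called may thus still have changed. P-values of fits without a mouse term measure the pooled spread between libraries within groups. Such fits treat libraries of the same mouse as independent, although the same 3 mice gave every group, and only the block takes up that pairing. Alternatives were the mouse as a block, DESeq2 1.42.0, RLE scaling, no filter, and leaving out each mouse or library.

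The mouse number pairs the libraries because the labels give it as a shared batch. Deviations from group means correlated between same-numbered libraries by a median of 0.36 in the epithelial, 0.23 in the fibroblast fraction and 0.32 between fractions.

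Levels per kilobase use exon lengths of GENCODE M21, matched by Ensembl identifier. Named are the 10 NOTCH genes, the 8 further pathway genes with the smallest p among those called at 1 CPM or more, a fixed set of markers, and the most correlated gene. Lfng, Rfng and Nrarp were named outside that rule, after their values were seen. The genes, lists and tests were chosen with earlier results of these data known. Of 159 listed genes 158 were found. Untested pathway genes were Dll3, Dlk1, Hes2, Hes3, Hes5, Hey2 and Heyl. DESeq2 is named as the authors' tool in the submitters' processing notes, and their own tests were not used here.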

Additional observations from a re-analysis of the deposited data

How the results depend on the processing

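With the mouse as a block, NOTCH genes called were 3 after CSE in the epithelial fraction (0 without it), 5 after CSE (3) and 1 with drugs (0) in the fibroblast fraction. Blocked counts of all genes were, in the epithelial fraction, 37 with drugs averaged, 181 after CSE, 1 for drugs without CSE and 1 for drugs after CSE. In the fibroblast fraction they were 464 with drugs averaged, 1589 after CSE, 6 for drugs after CSE, 124 for CSE without drugs and 1 for the interaction of drugs and CSE, and 1 for CSE by fraction. The block reversed Mfng after CSE in the epithelial fraction, to -0.019, and changed no other call of the 10 NOTCH genes. Among the further pathway genes it added Notch4, Adam10 and Itch between the fractions (adjusted p = 0.0440, 0.0275 and 0.0374) and 1 target after CSE in the epithelial fraction. Markers called after CSE in the fibroblast fraction became 4 secretory (3 without it), 4 alveolar type 2 (5), 2 fibroblast (1) and 0 immune (1). DESeq2 called 1 NOTCH gene after CSE in the epithelial fraction. In the fibroblast fraction it called 5 after CSE, 2 for CSE without drugs, 1 with drugs averaged and 1 for drugs after CSE. DESeq2's counts of all genes in the epithelial fraction were 55 with drugs averaged, 181 after CSE, 6 and 10 for drugs without and after CSE, 12 for CSE without drugs and 1 for their interaction. In the fibroblast fraction they were 677 and 1650, then 19, 142 and 542, with 1 and 79 for drugs and CSE by fraction. With no filter on low counts the epithelial counts were 2 with drugs averaged, 11 after CSE and 1 in each of the other 3 contrasts of 2 groups, and the fibroblast count for CSE without drugs was 47. RLE scaling changed no call of these results. The cause was not tested.

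Leaving out a mouse or a library gave 0 to 4 NOTCH genes after CSE, 0 to 1 for CSE without drugs and 0 to 1 with drugs in the fibroblast fraction. Counts of all genes ran there from 0 to 1117 after CSE, 0 to 288 with drugs, 0 to 41 for CSE without drugs, 0 to 1 and 0 to 4 for drugs without and after CSE, and 0 to 1 for the interaction. Epithelial counts ran from 0 to 17 after CSE, 0 to 4 with drugs, 0 to 2 and 0 to 1 for drugs without and after CSE, and 0 to 1 for the interaction, and for both contrasts by fraction from 0 to 1. Leaving out a mouse or a library also turned the sign of some changes, none of them called. After CSE these were Dll4 in the fibroblast fraction (-0.39 to 0.52) and, in the epithelial fraction, Notch2 (-0.016 to 0.057), Jag1 (-0.14 to 0.050) and Mfng (-0.25 to 0.35). With drugs in the fibroblast fraction they were Notch1 (-0.012 to 0.072), Notch2 (-0.023 to 0.096), Dll1 (-0.057 to 0.21), Dll4 (-0.023 to 0.42), Hey1 (-0.29 to 0.15) and Mfng (-0.26 to 0.085). In the epithelial libraries they were Notch2 (-0.030 to 0.039), Dll1 (-0.14 to 0.027), Dll4 (-0.028 to 0.20), Jag1 (-0.080 to 0.11) and Hey1 (-0.28 to 0.14). Each group held 3 libraries, and all 3 fibroblast calls after CSE were lost without mouse 3.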
